A study of Homo sapiens with 6 samples.

Results

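Aminoacyl-tRNA synthetases are the enzymes that join each amino acid to its transfer RNA, and 39 genes of this system were examined here by name. They were 20 cytosolic synthetases, 16 mitochondrial synthetases and the 3 scaffold proteins AIMP1, AIMP2 and EEF1E1. All 39 were found among the 27914 genes of the deposited table, under the older symbols it uses (GARS for GARS1, for example), and all 39 passed the filter on low values that left 12096 tested genes. The cells were MCF10A, a human breast epithelial line that grows without limit but does not form tumours. Of the 6 RNA-seq libraries, 3 came from cells with the genotype ⍺-/-;βin, called PI5P4K-depleted cells here, and 3 from SCRin control cells with a wild-type genotype. Both groups had been given doxycycline for 3 days. The labels do not expand ⍺, β, in or SCR, and ⍺ and β were read, from PI5P4K in the title, as the lipid kinases of the genes PIP4K2A and PIP4K2B. Whether the ⍺-/- cells are a single clone is not stated in the labels, nor is it stated that each replicate was its own culture. The p-values therefore reflect the spread among these libraries, which may be technical.

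Each synthetase recognises its amino acid and the matching transfer RNAs, and the charged transfer RNA is then carried to the ribosome by an elongation factor. In animal cells, part of the cytosolic enzymes (among them those for glutamate and proline, isoleucine, leucine, methionine, glutamine, arginine and lysine) sit together in the multi-synthetase complex, held by the non-enzymatic proteins AIMP1, AIMP2 and EEF1E1. Mitochondria use their own, nuclear-encoded enzymes, whose symbols end in 2. GARS and KARS are exceptions, since each of these genes encodes both the cytosolic and the mitochondrial form of its enzyme. Many cytosolic synthetase genes are known targets of ATF4, the transcription factor of the amino acid response.

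The 250 bases before the start of the AIMP2 and GARS genes are shown because AIMP2 and GARS were called lower, as described below, and lie on the same chromosome arm. The third member called lower, VARS2, had no entry in the promoter table used. The sequences are from RefSeq, on GRCh38.p14, read 5′ to 3′ on the plus strand at chr7:6009022-6009271 and chr7:30594485-30594734. Capitals mark matches, on either strand, to any of TGATGNAAN (the ATF4-type element), CACGTG (the E-box bound by MYC), TGACGTCA (the cAMP response element) and ATTGG (the inverted CCAAT box).
AIMP2: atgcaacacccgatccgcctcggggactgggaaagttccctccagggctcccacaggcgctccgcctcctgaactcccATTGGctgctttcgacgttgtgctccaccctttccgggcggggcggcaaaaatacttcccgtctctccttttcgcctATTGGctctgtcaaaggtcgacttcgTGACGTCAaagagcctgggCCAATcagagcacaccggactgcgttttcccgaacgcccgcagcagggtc
GARS: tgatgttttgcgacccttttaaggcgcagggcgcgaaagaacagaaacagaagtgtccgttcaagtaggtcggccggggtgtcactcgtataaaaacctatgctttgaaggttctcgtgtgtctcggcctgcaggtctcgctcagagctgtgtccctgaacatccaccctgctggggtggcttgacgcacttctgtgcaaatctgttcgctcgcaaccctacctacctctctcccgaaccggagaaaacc
The AIMP2 window holds 3 matches to ATTGG and 1 to TGACGTCA, and the GARS window holds no match to any of the motifs. ATTGG and TGACGTCA were added after the sequences were seen, so this contrast is a description only. Neither TGATGNAAN nor CACGTG was found in the AIMP2 window.

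The ATF4-type element TGATGNAAN was found before the start of 3 of the 33 members with a promoter entry, AARS, IARS and YARS2, and before 3.18% of 27305 genes. The sites are shown with up to 10 bases on each side, 5′ to 3′ on the strand of the gene, because this element is the one known from synthetase promoters. They lie at chr16:70289676-70289704 (minus strand), chr9:92293698-92293721 (minus strand) and chr12:32756076-32756104 (minus strand). Capitals mark the match.
AARS: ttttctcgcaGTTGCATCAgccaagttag
IARS: ttttcagcgcGTTGCATCAcctcc
YARS2: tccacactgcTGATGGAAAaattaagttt
The AARS and IARS matches have the same letters and run on the strand opposite to the gene. For comparison, ATTGG was found before 17 of the 33 members (51.5%) and 33.0% of all genes, CACGTG before 2 members and 6.46% of all genes, and TGACGTCA before 1 member and 1.75% of all genes. Matches of ATTGG did not overlap those of TGACGTCA in AIMP2. Members without an entry included LARS, VARS, YARS, AARS2 and VARS2. A match is a description of the letters and not evidence that a factor is bound.

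Of the 39 mRNAs, 3 were called lower in PI5P4K-depleted cells and 0 higher, while 36 did not pass the test. The 3 were the cytosolic and mitochondrial glycyl-tRNA synthetase GARS, the mitochondrial valyl-tRNA synthetase VARS2 and the scaffold AIMP2, at 50.1%, 42.4% and 46.8% of the control level. Among all tested genes, 2.19% were called, 1.83% lower and 0.364% higher (limma on log2(TPM + 1), Benjamini-Hochberg adjusted p under 0.05 over all tested genes). At an unadjusted p under 0.05 there were 6 members (GARS, VARS2, AIMP2, AIMP1, RARS and LARS2) and 11.9% of all tested genes. TPM is an abundance per transcript length, scaled to the same total in each library. The median log2 change over the 39 members was 0.02, against -0.01 over all tested genes. In bulk RNA, fewer cells of a type and less RNA per cell cannot be told apart.

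**Figure D1:**
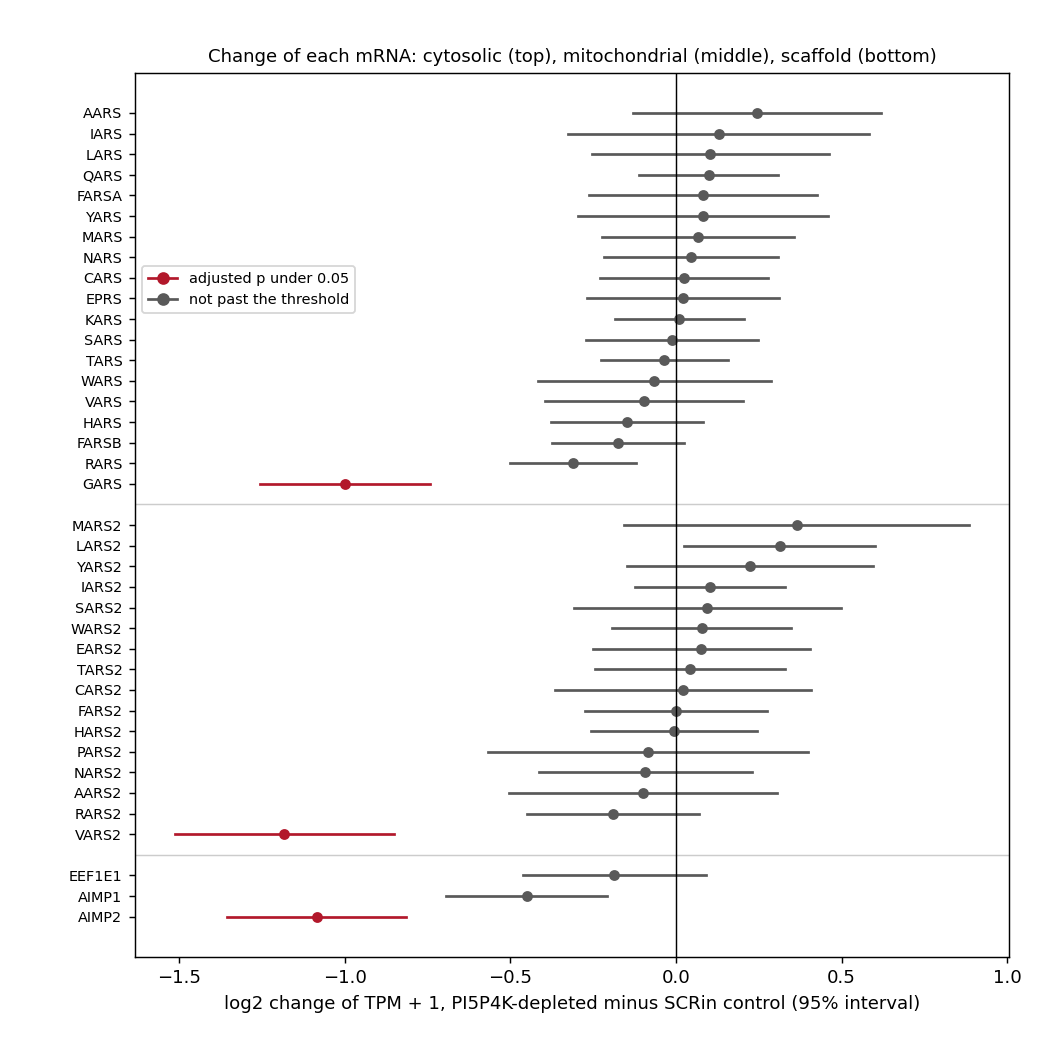
Log2 change of TPM + 1 (PI5P4K-depleted minus SCRin control) with its 95% interval for each mRNA described, cytosolic synthetases at the top, mitochondrial in the middle and scaffold at the bottom. GARS at -0.999, VARS2 at -1.18 and AIMP2 at -1.08 (red) stand apart from the others, which lie between -0.45 and 0.36.

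GARS, which charges glycine transfer RNAs in both compartments, measured 243, 247 and 199 TPM in PI5P4K-depleted replicates 1 to 3, against 451, 489.5 and 433 TPM in the controls. The groups were far apart, with the highest depleted library well under the lowest control. GARS averaged 229.5 ± 26.4 TPM in PI5P4K-depleted cells and 458 ± 28.7 TPM in controls (SD, n = 3 each). The log2 change was -0.999 (SE 0.11, limma adjusted p = 0.00609). It was the most abundant of the 39 mRNAs in control cells and ranked 4 in PI5P4K-depleted cells, behind IARS2, EPRS and TARS.

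The other 19 cytosolic synthetases did not pass the test, with log2 changes between -0.31 and 0.25. RARS, the arginyl-tRNA synthetase, came nearest to the threshold. It measured 241, 227 and 216 TPM in PI5P4K-depleted cells and 294, 277 and 278 TPM in controls. Each depleted library lay below each control (log2 change -0.31, 95% interval -0.50 to -0.12, unadjusted p = 0.00605, limma adjusted p = 0.146). FARSB, the β subunit of phenylalanyl-tRNA synthetase, also had groups that did not overlap, with 81.5 to 85.0 TPM in PI5P4K-depleted cells and 89.7 to 102 TPM in controls (log2 change -0.17, limma adjusted p = 0.497). Among all tested genes, 11.4% had depleted libraries entirely below the controls and 5.64% entirely above, and 3 of the 20 cytosolic members (GARS, RARS and FARSB) lay entirely below and 1 entirely above.

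The cytosolic enzymes described next overlapped between the groups. EPRS, the fused glutamyl- and prolyl-tRNA synthetase, averaged 284 ± 34.7 TPM in PI5P4K-depleted cells and 279.6 ± 28.96 TPM in controls (SD, n = 3 each). TARS, the threonyl enzyme, averaged 244 and 249.6 TPM in the same order, and KARS, the lysyl enzyme, 218 and 216 TPM. KARS is the other gene that serves both compartments, and unlike GARS it stood at 101% of control. The ratio of GARS to KARS TPM was 1.16, 1.07 and 0.933 in PI5P4K-depleted libraries and 2.15, 2.15 and 2.05 in controls. SARS (seryl), NARS (asparaginyl), HARS (histidyl), IARS (isoleucyl) and LARS (leucyl) stood at 99.1%, 103%, 90.5%, 109% and 107% of control. WARS (tryptophanyl), YARS (tyrosyl), MARS (methionyl), QARS (glutaminyl) and VARS (valyl) stood at 96.6%, 105%, 105%, 107% and 93.2%.

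The least abundant cytosolic members in controls, CARS, AARS and FARSA, did not pass the test either. CARS, the cysteinyl enzyme, measured 42.6 to 50.2 TPM in PI5P4K-depleted cells and 40.8 to 48.9 TPM in controls, and FARSA, the α subunit of the phenylalanyl enzyme, 66.6 to 82.0 and 57.1 to 79.9 TPM. AARS, the alanyl enzyme with the ATF4-type element shown above, had the highest log2 change of the cytosolic group and stood at 118.9% of control. It measured 59.7, 80.5 and 63.2 TPM in PI5P4K-depleted cells and 49.6, 67.6 and 53.9 TPM in controls (log2 change 0.25, 95% interval -0.13 to 0.62, limma adjusted p = 0.642). The groups overlapped. For 27 of the 39 members the 95% interval of the log2 change lay within -0.5 and 0.5, as it did for 48.4% of all tested genes. For the other not-called members a larger change lies inside the interval.

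**Figure D2:**
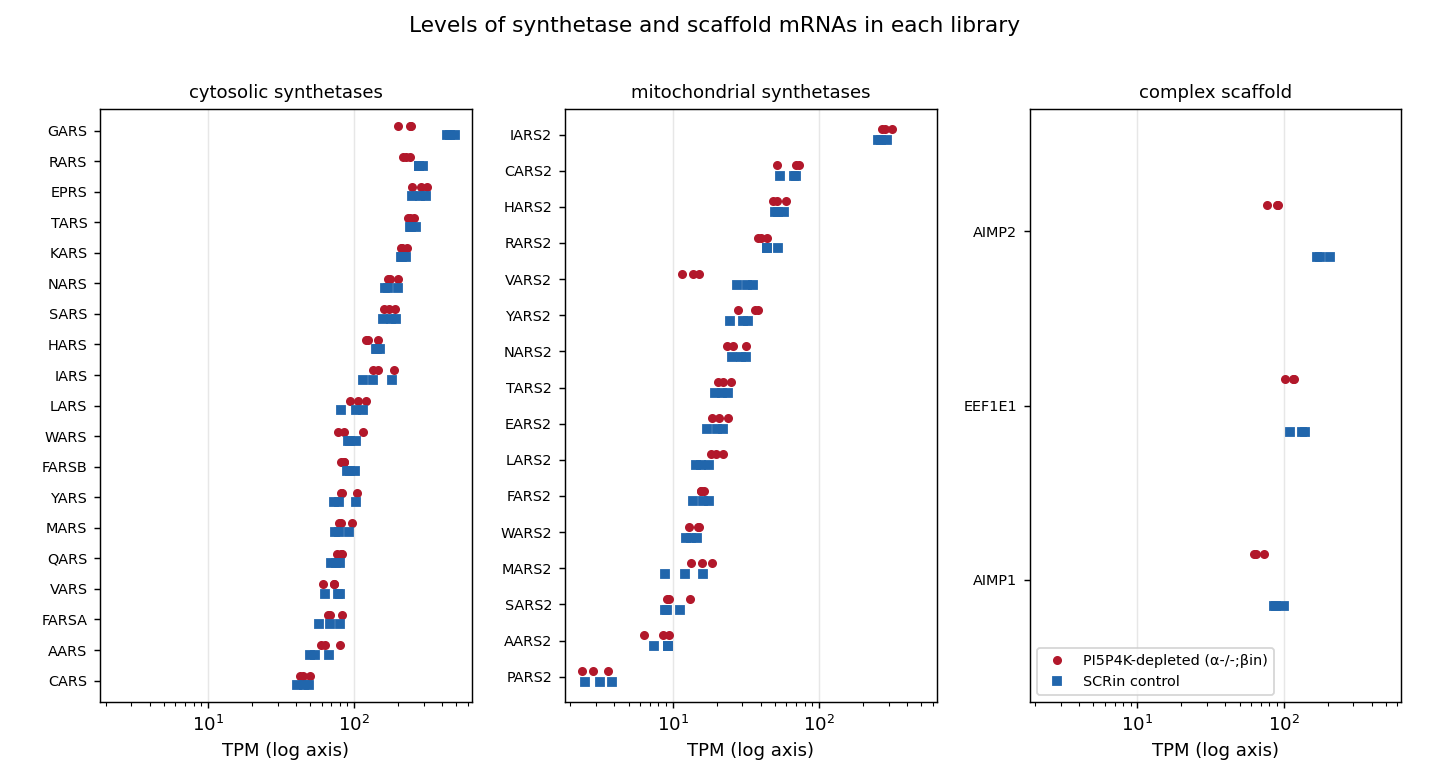
TPM of each mRNA described in every library on a log axis, with PI5P4K-depleted libraries as red circles above the SCRin control libraries as blue squares, ordered by control level within each role. The red and blue points of GARS, VARS2 and AIMP2 are well apart, while those of most other members overlap.

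In the multi-synthetase complex AIMP2 was lower, and the enzyme mRNAs other than RARS (80.6% of control) were near control. Of its 8 enzymes, 0 were called (limma, and 1, RARS, at an unadjusted p under 0.05), with a median log2 change of 0.08. Among all tested genes 2.19% were called, a share at which 8 genes hold few calls or none. AIMP2, the scaffold that several complex members bind, measured 77.0, 90.6 and 91.0 TPM in PI5P4K-depleted cells and 168, 207 and 177 TPM in controls. It averaged 86.2 ± 7.95 TPM in PI5P4K-depleted cells and 184 ± 20.3 TPM in controls (SD, n = 3 each). The groups did not overlap, and the log2 change was -1.08 (SE 0.11, limma adjusted p = 0.00603).

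AIMP1, which binds transfer RNA and is also the precursor of a secreted cytokine, measured 64.6, 72.9 and 62.3 TPM in PI5P4K-depleted cells and 85.3, 100.2 and 88.6 TPM in controls. The groups did not overlap, with AIMP1 at 72.9% of control, but the test over all genes was not passed (log2 change -0.45, SE 0.10, 95% interval -0.69 to -0.21, unadjusted p = 0.00325, limma adjusted p = 0.0975). EEF1E1, which connects the complex to an elongation factor, measured 102, 117 and 118 TPM in PI5P4K-depleted cells and 133, 141 and 111 TPM in controls. Its groups overlapped (log2 change -0.19, 95% interval -0.46 to 0.09, limma adjusted p = 0.630). All 3 scaffold mRNAs thus had a log2 change below 0, while 7 of the 8 complex enzymes had one above 0. Across all tested genes 46.7% had a change above 0. AIMP2 lies within a run of chromosome 7 genes that were lower together, described below.

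Set against the complex enzymes of the same library, AIMP2 moved most. The ratio of AIMP2 to the median TPM of the 8 enzymes was 0.677, 0.590 and 0.723 in PI5P4K-depleted libraries and 1.65, 1.40 and 1.49 in controls. For AIMP1 the ratio was 0.568, 0.475 and 0.495 in PI5P4K-depleted libraries and 0.839, 0.680 and 0.747 in controls. For EEF1E1 it was 0.897, 0.759 and 0.937 in PI5P4K-depleted libraries and 1.30, 0.958 and 0.932 in controls, where the groups overlap by a narrow margin. AIMP2 was thus the most abundant scaffold mRNA in each control library and lay between EEF1E1 and AIMP1 in each depleted library. These are ratios of mRNA levels, and protein in the complex was not measured.

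**Figure D3:**
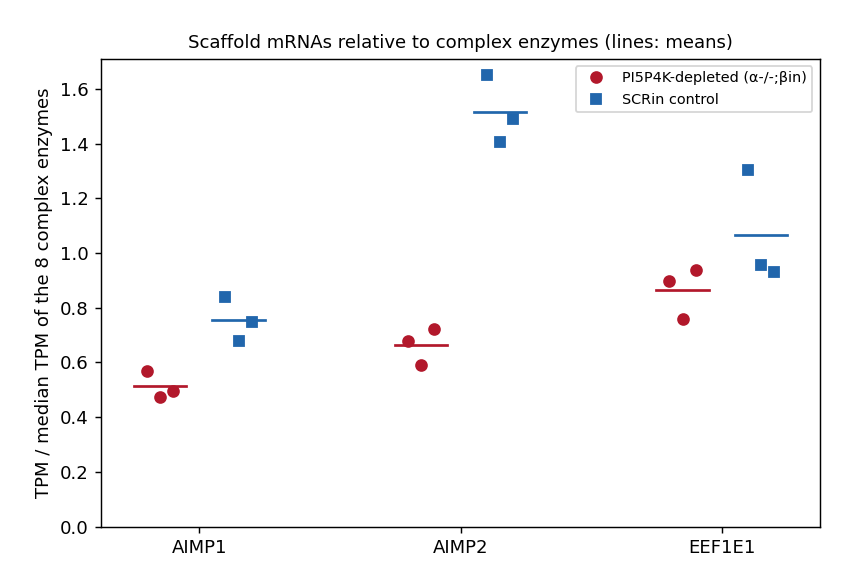
TPM of each scaffold mRNA divided by the median TPM of the 8 complex enzymes in the same library, with PI5P4K-depleted libraries in red to the left of SCRin controls in blue, and lines for the means of 3 libraries. For AIMP2 the red points lie between 0.590 and 0.723 and the blue points between 1.40 and 1.65.

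Among the mitochondrial synthetases only VARS2 was called. VARS2, which charges valine transfer RNA inside mitochondria, measured 13.9, 11.5 and 15.2 TPM in PI5P4K-depleted cells and 35.7, 27.8 and 32.3 TPM in controls. The depleted libraries all lay under the lowest control, and the means were 13.5 ± 1.83 TPM in PI5P4K-depleted cells and 31.9 ± 3.97 TPM in controls (SD, n = 3 each). Its log2 change of -1.18 (SE 0.14, limma adjusted p = 0.00789) was the largest fall of the 39 members. The call was lost without SCRin control replicate 3, at a limma adjusted p = 0.0547 (0.00195 to 0.0749 over the alternatives) and a log2 change of -1.17.

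The other 15 mitochondrial enzymes did not pass, with log2 changes between -0.19 and 0.36. LARS2, the leucyl enzyme, was the 1 member of this group with all depleted libraries above the controls, at 18.2, 22.2 and 19.9 TPM in PI5P4K-depleted cells and 14.5, 17.8 and 15.5 TPM in controls. The difference did not pass over all genes (log2 change 0.31, 95% interval 0.03 to 0.60, unadjusted p = 0.0370, limma adjusted p = 0.369). MARS2, the methionyl enzyme, had the highest log2 change of all members, 0.36, but a wide interval (-0.16 to 0.88, limma adjusted p = 0.613) and libraries from 13.4 to 18.6 TPM in PI5P4K-depleted cells and from 8.84 to 16.2 TPM in controls. YARS2, the tyrosyl enzyme, measured 28.0 to 38.2 TPM in PI5P4K-depleted cells and 24.6 to 32.5 TPM in controls (log2 change 0.22, limma adjusted p = 0.676).

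IARS2, the isoleucyl enzyme of mitochondria, was by far the most abundant of its group, with 289 ± 22.5 TPM in PI5P4K-depleted cells and 269 ± 19.999 TPM in controls (SD, n = 3 each), and did not pass (log2 change 0.10, limma adjusted p = 0.771). It ranked first of all 39 members in PI5P4K-depleted cells. CARS2 (cysteinyl), HARS2 (histidyl) and RARS2 (arginyl) averaged 65.1, 53.3 and 41.0 TPM in PI5P4K-depleted cells and 63.7, 53.4 and 47.0 TPM in controls. NARS2 (asparaginyl), TARS2 (threonyl), EARS2 (glutamyl), FARS2 (phenylalanyl), WARS2 (tryptophanyl) and SARS2 (seryl) averaged 10.6 to 27.0 TPM in PI5P4K-depleted cells and 9.77 to 28.8 TPM in controls. AARS2 (alanyl) and PARS2 (prolyl) were the least abundant, at 8.14 and 2.95 TPM in PI5P4K-depleted cells and 8.73 and 3.19 TPM in controls.

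Setting each cytosolic gene against the mitochondrial gene for the same amino acid gave 17 pairs. In 15 of them the cytosolic mRNA was the more abundant in every library. The exceptions were IARS/IARS2, with ratios of 0.477 to 0.594 in PI5P4K-depleted libraries and 0.454 to 0.618 in controls, and CARS/CARS2, with 0.608 to 0.972 and 0.602 to 0.843 in the same order. EPRS/PARS2 had the highest ratio, averaging 100.1 in PI5P4K-depleted libraries and 91.5 in controls.

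Only VARS/VARS2 moved far from its control ratio. It was 4.40, 6.30 and 4.77 in PI5P4K-depleted libraries and 1.76, 2.89 and 2.41 in controls, a difference of 1.14 on the log2 scale. VARS itself measured 68.6 TPM in PI5P4K-depleted cells and 73.7 TPM in controls (log2 change -0.10, limma adjusted p = 0.855). The other pairs differed by -0.33 to 0.36, and the median over the 17 pairs was -0.08. LARS/LARS2 was the other pair whose groups did not overlap, at 5.12 to 5.40 in PI5P4K-depleted libraries and 5.61 to 6.62 in controls. Thus 2 of the 17 pairs had groups that did not overlap, as did 17.1% of all tested genes taken singly. No test was run over the pairs, which share genes for phenylalanine and for EPRS.

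**Figure D4:**
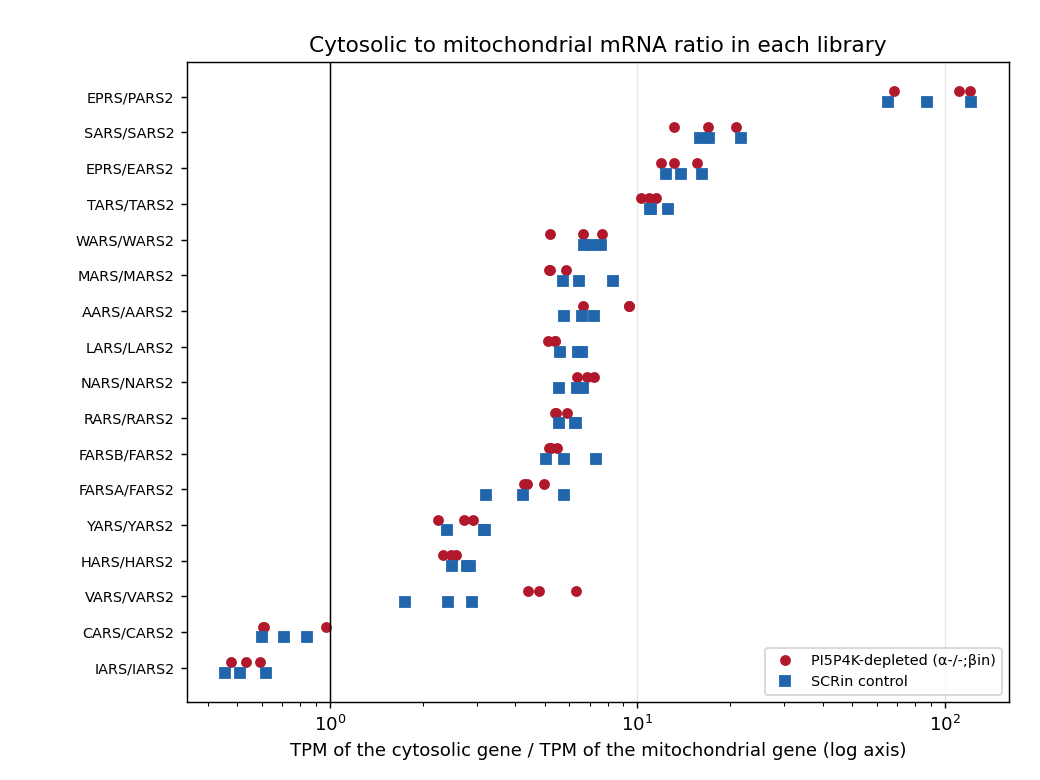
TPM of each cytosolic gene divided by that of its mitochondrial counterpart in every library, on a log axis, with PI5P4K-depleted libraries as red circles above SCRin controls as blue squares. VARS/VARS2 is the 1 pair whose points are clearly apart, at 4.40 to 6.30 against 1.76 to 2.89, while IARS/IARS2 and CARS/CARS2 lie left of 1 in both groups.

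Taken as groups, the cytosolic and mitochondrial synthetases had medians near 0. The median log2 change was 0.02 over the 20 cytosolic members and 0.03 over the 16 mitochondrial members. The summed TPM of the mitochondrial members was 622, 699.9 and 643 in PI5P4K-depleted libraries and 619, 677 and 637 in controls. Without GARS, that of the cytosolic members was 2469.8, 2668 and 2379 in PI5P4K-depleted libraries and 2442, 2726 and 2426 in controls. With GARS it was 2712, 2915 and 2578 against 2893, 3215 and 2859.9 in the same order. The scaffold sum was 244, 280.1 and 271 TPM in PI5P4K-depleted libraries and 386, 448 and 376 TPM in controls.

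AIMP2 and GARS lie on chromosome 7 within a run of genes that were lower together in PI5P4K-depleted cells. From FAM20C through CHCHD2 in the GENCODE v29 gene order, 131 of 198 tested genes were called lower, against 1.83% of all tested genes. The median log2 change of the 198 was -0.91 (quartiles -1.07 and -0.77). The ends of the run were taken from earlier results of these data, and AIMP2 and GARS are counted in it. The count and medians therefore describe the run and do not test it. The median level of the 121 genes of the run averaging 20 TPM or more was 51.3% of control, against 46.8% for AIMP2 and 50.1% for GARS. The nearest 5 tested genes on each side of AIMP2 all had a change below 0, and 7 of the 10 were called lower. For GARS, all 10 were below 0 and 4 were called lower. Among them were EIF2AK1, the heme-sensitive eIF2α kinase next to AIMP2, with a log2 change of -1.004, and GGCT, an enzyme of glutathione turnover close to GARS, with -0.97. Both were chosen after their values were seen.

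VARS2 lies on chromosome 6 among genes that stayed near control. The nearest 10 tested genes had a median log2 change of -0.02 (range -0.24 to 0.26), and 0 of them were called, with FLOT1 nearest to the threshold (log2 change 0.26, limma adjusted p = 0.419). GTF2H4, a subunit of a transcription factor complex and the gene before VARS2, measured 22.5 TPM in PI5P4K-depleted cells and 21.9 TPM in controls. Apart from AIMP2 and GARS, the median change of the 10 neighbours lay between -0.11 and 0.09 for all other 37 members.

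The position of each called member relative to its neighbours was then compared between groups. The members were chosen by their calls in these same libraries. With neighbours near control, as for VARS2, the groups were likely to separate, so the VARS2 test adds no separate evidence. For VARS2, log2(TPM + 1) minus the median of the 10 neighbours was -1.53, -1.57 and -1.31 in PI5P4K-depleted libraries and -0.15, -0.35 and -0.53 in controls, a difference of -1.13 (exact two-sided permutation p = 0.1, the smallest that 3 libraries against 3 allow). For GARS the difference was -0.27 and the groups overlapped (exact permutation p = 0.2). It was -0.15 without PI5P4K-depleted replicate 3 and -0.11 without the filter on low values. For AIMP2 it was 0.03 (exact permutation p = 0.7). Each gene was also centred on its own control mean first, a choice made after seeing the data. The differences were then -1.17 for VARS2, -0.35 for GARS and -0.21 for AIMP2. Centring uses the group labels, so an exact permutation test does not apply to these values and they are given as a description. The direction for AIMP2 was not stable. It was also below 0 when SCRin control replicate 3 was left out (-0.0318), when PI5P4K-depleted replicate 1 was left out (-0.0149) and with no filter on low values (-0.0857).

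**Figure D5:**
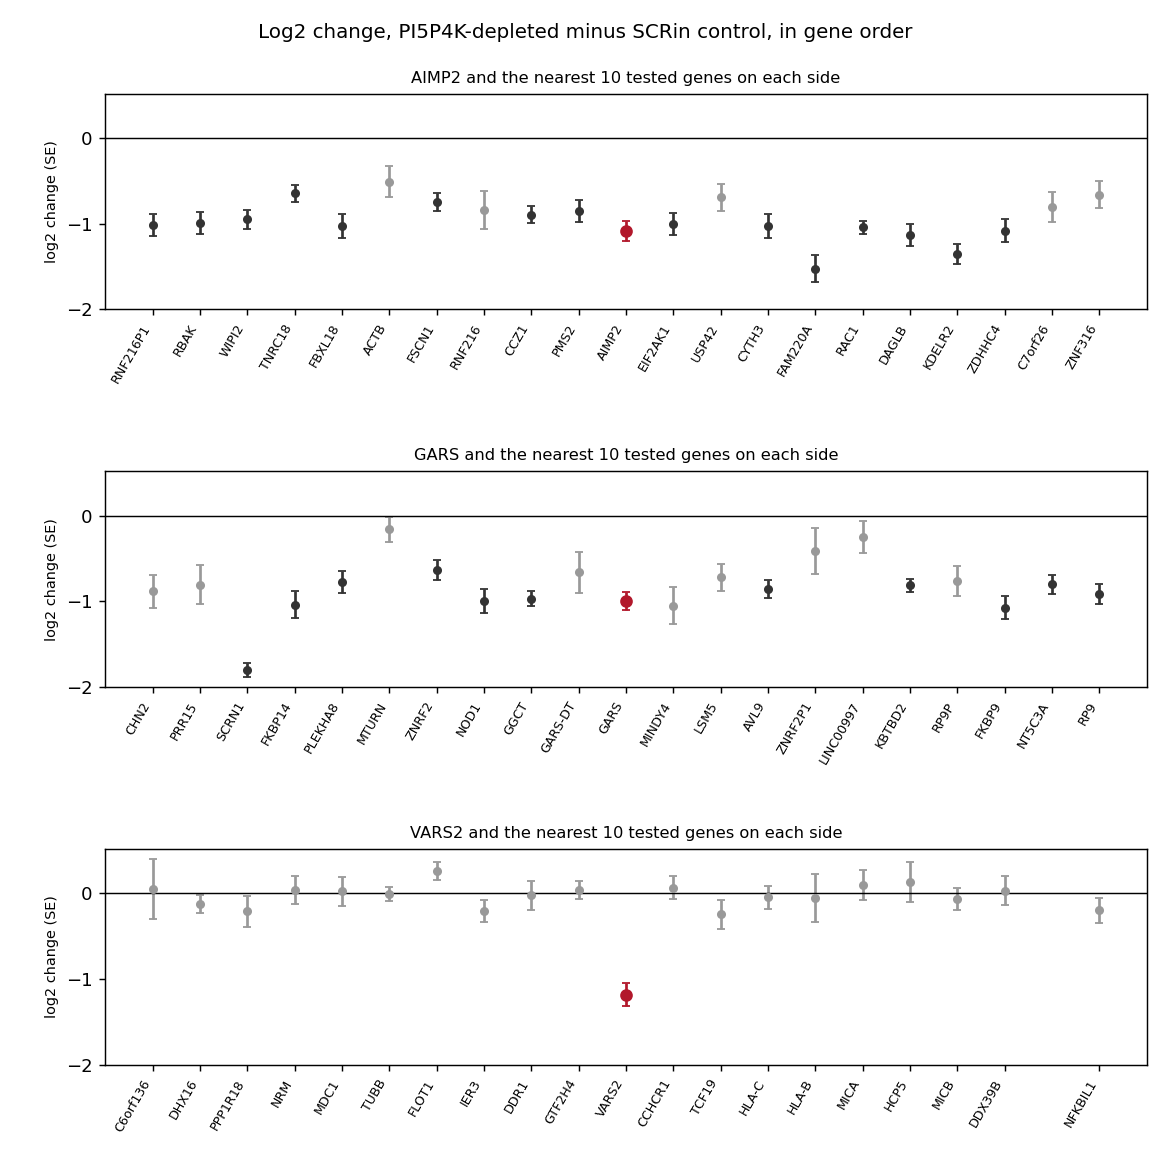
Log2 change (PI5P4K-depleted minus SCRin control, bars SE) of AIMP2, GARS and VARS2 in red and of the nearest 10 tested genes on each side in gene order, black where called and grey where not. All neighbours of AIMP2 and GARS lie below 0, while those of VARS2 lie around 0. SNORD84, a short RNA listed at 0 in all controls, is left out of the VARS2 panel because of its wide error.

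Strandedness of the libraries was not found in the labels, so reads of overlapping genes cannot be told apart. AIMP2 overlaps EIF2AK1 on the opposite strand, which measured 55.4 TPM in PI5P4K-depleted cells and 112 TPM in controls, and GARS overlaps the noncoding GARS-DT, at 0.596 and 1.53 TPM in the same order. VARS2 overlaps GTF2H4 on the same strand. HARS and HARS2, which are similar in sequence, are divergent neighbours on chromosome 5, and short reads could be split between them. In GENCODE v29 they overlap at their starts on opposite strands, while the RefSeq starts used here lie apart. The 84 bases between the RefSeq starts (RefSeq, GRCh38.p14, plus strand, chr5:140691371-140691454) are shown because this single stretch lies before both a cytosolic and a mitochondrial member.
HARS-HARS2: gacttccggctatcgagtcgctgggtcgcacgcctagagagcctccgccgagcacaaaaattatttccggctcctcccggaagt
None of the 4 motifs above is found in it. HARS measured 146, 125 and 121 TPM in PI5P4K-depleted cells and 150.5, 140.1 and 143 TPM in controls, and HARS2 59.3, 48.6 and 51.9 TPM against 52.6, 50.3 and 57.3 TPM. Their ratio was 2.33 to 2.57 in PI5P4K-depleted libraries and 2.50 to 2.86 in controls.

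Many members varied together between libraries within a group. In PI5P4K-depleted cells, 26 of the 39 mRNAs were highest in replicate 2, and in controls 28 were, 24 of them in both. Over all tested genes, 43.8% were highest in replicate 2 of PI5P4K-depleted cells, 44.4% in that of controls and 30.0% in both. IARS, for example, measured 135, 187 and 145 TPM in PI5P4K-depleted cells and 115, 180.3 and 134 TPM in controls. For IARS the step between libraries of a group was larger than the difference between group means (log2 change 0.13, 95% interval -0.33 to 0.58). The limma fit did not use the replicate numbers, so variation of this kind counts as error and widens the interval.

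Genes that work with the synthetases gave no calls. Among all tested genes, 2.19% were called, 11.9% had an unadjusted p under 0.05 and 46.7% had a change above 0. At 2.19%, lists of this size hold few calls or none, so 0 calls says little about them. Of 24 tested amino acid response genes, 0 passed (limma, and 2 at an unadjusted p under 0.05), 19 had a change above 0, and the median log2 change was 0.16. SLC7A5, the large neutral amino acid transporter and the most highly expressed of this list, averaged 588 ± 117 TPM in PI5P4K-depleted cells and 431 ± 134 TPM in controls (log2 change 0.48, 95% interval -0.12 to 1.08, limma adjusted p = 0.547). The 2 genes under an unadjusted p of 0.05, chosen after their values were seen, were ATF4, with 465 and 353 TPM in PI5P4K-depleted and control cells (log2 change 0.41, limma adjusted p = 0.329), and PSPH, the last enzyme of serine synthesis, with 16.2 and 30.5 TPM (log2 change -0.88, limma adjusted p = 0.211). PSPH lies within the chromosome 7 run described for AIMP2 and GARS.

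Of 25 genes of tRNA processing and export, 0 passed, against 2.19% of all tested genes, and the median was 0.04. At an unadjusted p under 0.05 there were 4 of the 25, against 11.9% of all tested genes. SSB, the La protein that binds new transfer RNA transcripts, was the most highly expressed, at 336 ± 41.0 TPM in PI5P4K-depleted cells and 309 ± 27.3 TPM in controls (limma adjusted p = 0.801). Of 7 cytosolic elongation factor genes, 0 passed and 0 had an unadjusted p under 0.05. All 7 had a log2 change above 0 (0.08 to 0.22), as did 46.7% of all tested genes. EEF1A1, which delivers charged transfer RNA to the ribosome, averaged 5757 ± 393 TPM in PI5P4K-depleted cells and 5333 ± 617 TPM in controls (limma adjusted p = 0.796). Of 16 mitochondrial translation and tRNA modification genes, 0 passed and 0 had an unadjusted p under 0.05, with a median of 0.06. TUFM, the mitochondrial elongation factor, averaged 159.7 ± 20.1 TPM in PI5P4K-depleted cells and 146 ± 11.5 TPM in controls (limma adjusted p = 0.758). Of 9 editing and related enzymes, 0 passed and 0 had an unadjusted p under 0.05, with a median of -0.05. DTD1, a deacylase that removes wrongly attached D-amino acids, averaged 88.3 ± 4.61 TPM in PI5P4K-depleted cells and 91.8 ± 13.3 TPM in controls (limma adjusted p = 0.942).

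Both targeted genes were lower, and markers of breast epithelium were present. PIP4K2A stood at 20.4% and PIP4K2B at 43.6% of control (log2 changes -2.05 and -1.13, limma adjusted p = 0.000847 and 0.00985). The epithelial markers KRT5, KRT14, KRT17, TP63, CDH1 and EPCAM were detected in every library, at 9.03 TPM or more. In 3 of these 6 markers the groups did not overlap, as in 17.1% of all tested genes. EPCAM measured 44.6 to 55.4 TPM in PI5P4K-depleted cells and 9.40 to 10.9 TPM in controls, TP63 25.1 to 29.6 against 13.1 to 18.9 TPM, and KRT5 841 to 1053 against 576 to 837 TPM. Their part in the results was not tested. PTPRC (leukocytes) was listed at 0 in all libraries, PECAM1, PDGFRB and ESR1 stayed under 0.2 TPM, and COL1A1, a collagen of fibroblasts, reached 3.12 TPM. Each library listed 14738 to 15058 genes above 0. Since TPM does not carry read totals, the depth behind each value is unknown.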

How the data were processed

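RNA from 3 PI5P4K-depleted (⍺-/-;βin) and 3 SCRin control MCF10A samples was sequenced on an Illumina NextSeq after TruSeq library preparation, per the labels' protocols. The authors deposited 1 table of TPM values per gene symbol, each column summing to 1000000. The submitters' processing notes name the build hg19 and DESeq2, with no role given. No aligner, quantifier or gene annotation is given in the sources used here. Columns headed as the experiment were matched by their numbers to the ⍺-/-;βin samples, the 1 group left.

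TPM was transformed to log2(TPM + 1), which understates changes of low genes. Genes averaging 1 TPM or more over the samples in a fit were tested with limma 3.58.1 (R 4.3.3), with a mean-variance trend, two-sided, and Benjamini-Hochberg adjustment at 0.05. The fit was tested on simulated data. Single values were compared by exact permutation tests (scipy 1.17.1). Neighbours were taken from the order of GENCODE v29, in which 25712 of the table's symbols were placed by name. Its build is not that of the authors, so it was used for gene names, order, strand and overlap, and no positions from it are given. Promoters were taken from RefSeq on GRCh38.p14, using the most upstream start listed for each gene. The motifs TGACGTCA and ATTGG were added after the sequences were seen.

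The members and lists were chosen with earlier results of these data known. All members were named except 1 that is not reported here but is counted in the totals. From each list the rule took up to 3 rising and 3 falling genes past the threshold or, with none, the most highly expressed gene. Alternatives changed the pseudocount, filter, scaling, trend or replicate block, or left out a library. No sample was left out of the main comparison.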

Additional observations from a re-analysis of the deposited data

How the results depend on the processing

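GARS, AIMP2 and VARS2 were lower under each of 15 other settings and kept their calls, except that VARS2 missed the threshold without SCRin control replicate 3. Leaving out 1 library at a time gave 2 to 3 called members, 106 to 219 called genes and 1 to 2 called target genes (PIP4K2B was lost without SCRin control replicate 3). With the filter then taken over all 6 samples, added after seeing the data, 58 genes, 0 members and 1 target gene passed, with a limma adjusted p = 0.0521 for GARS and AIMP2 (0.00146 to 0.0521 over their alternatives). These fits hold fewer samples, and no other cause was tested.

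With the replicate number as a block, 881 genes and 5 members passed, adding RARS (limma adjusted p = 0.0165, 0.0165 to 0.469 over its alternatives) and AIMP1 (limma adjusted p = 0.00868, 0.00868 to 0.339). The labels only number the replicates. Deviations from the group means correlated at 0.25, 0.27 and -0.02 across tested genes for numbers 1, 2 and 3. Unlike numbers gave -0.29 to 0.05. Replicates 1 and 2 thus correlated best with their own number and replicate 3 did not, so the numbers were not taken to pair samples. Whether replicates 1 and 2 share a step of the work is not stated in the labels and was not tested, and the calls for RARS and AIMP1 depend on this choice. The main fit, with 265 genes called, counts any variation shared by replicate number as error. A member that did not pass in it is therefore not shown to be unchanged.

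Without the filter, the difference from the neighbours was -0.95 for VARS2, -0.11 for GARS and -0.0857 for AIMP2. For AIMP2 it was -0.21 with centred neighbours. Leaving out 1 library moved the median difference over the pairs between -0.15 and 0.00779, the highest value being without PI5P4K-depleted replicate 3. PARS2 gave no value at a mean of at least 5 TPM. Depth is unknown, which limits what can be said of PARS2 and AARS2.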
